A study of Mus musculus with 12 samples.

Results

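The genes described here are 50 genes of DNA replication and mitosis, of 52459 gene symbols in an RNA sequencing table of mouse choroid plexus. They were chosen by name: 21 act in DNA replication, 26 in mitosis, and 3 encode transcription factors of the cell cycle (Foxm1, Mybl2 and E2f1). All 50 were found in the table and all 50 were among the 17422 genes tested. Choroid plexus is the secretory tissue of the brain ventricles that makes cerebrospinal fluid, an epithelium over a vascular stroma. The tissue was dissected whole from mice labelled as strain B6, with no genetic change, transgene or treatment named for these animals. There were 3 libraries at each of 4 ages: an embryonic stage (E12.5), the day of birth (P0), postnatal day 14 (P14) and 6 months of age (A6m). Per the series design the specimens were independent, and the labels name neither sex, nor the ventricle, nor whether animals were pooled. Levels are in TPM, an abundance per transcript length that sums to the same total in each library, and the order of 3 values at an age is always replicate 1, 2 and 3.

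Replication begins when the origin factors Cdc6 and Cdt1 load the hexameric Mcm2 to Mcm7 helicase onto chromatin. The helicase is switched on by Cdc45 and the GINS complex, and polymerases clamped by PCNA then copy both strands from nucleotides that ribonucleotide reductase and related enzymes supply. Entry into mitosis depends on Cdk1 with its A- and B-type cyclins, after which kinetochores, kinesins and the spindle checkpoint segregate the chromosomes and the anaphase-promoting complex (APC/C) ends the division. Replication genes are textbook targets of E2F factors, and mitosis genes of the MuvB complex with B-Myb (encoded by Mybl2) or FoxM1. The MuvB complex acts through a cell cycle homology region (CHR). CCAAT boxes often neighbour the CHR but are not the sites of these factors. In the developing choroid plexus, dividing progenitors lie at the base of the tissue, and epithelial cells become postmitotic and multiciliated.

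Promoters are shown first, because these regulatory motifs are classical for genes of each class. RefSeq promoters on GRCm38.p6 were matched for 41 of the 50 genes, 17 of replication, 22 of mitosis and 2 of the transcription factors. Motifs were searched on both strands, from 250 bases before to 50 bases after the gene start: CCAAT itself, the E2F motif in the forms TTCCCGC and, as an alternative, TTGGCGC, and the CHR in the forms TTTGAA and, as an alternative, TTCGAA. The sequences below are the 250 bases before the start, written 5′ to 3′ on the strand of the gene, with motif matches in capitals, on either strand, so that a match on the opposite strand appears as its reverse complement. Mcm5 (chr8:75109259-75109508, plus strand), a helicase subunit, had the largest fall at P0 among replication genes with an E2F match. Pcna (chr2:132253181-132253430, minus strand), the polymerase clamp, had the smallest fall of the replication genes. Ube2c (chr2:164769679-164769928, plus strand), the ubiquitin-conjugating enzyme of the APC/C, and Cdk1 (chr10:69352913-69353162, minus strand), the mitotic kinase, had the largest and the smallest fall at P0 among mitosis genes with a CHR match. Top2a (chr11:99024190-99024439, minus strand), the topoisomerase that untangles chromosomes, was added after its values were seen, as the gene with the largest fall by A6m.
Mcm5: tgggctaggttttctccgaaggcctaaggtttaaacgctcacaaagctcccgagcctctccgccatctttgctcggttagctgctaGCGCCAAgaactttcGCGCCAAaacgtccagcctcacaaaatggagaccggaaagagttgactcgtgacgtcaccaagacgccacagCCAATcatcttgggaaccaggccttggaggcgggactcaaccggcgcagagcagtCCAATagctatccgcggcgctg
Pcna: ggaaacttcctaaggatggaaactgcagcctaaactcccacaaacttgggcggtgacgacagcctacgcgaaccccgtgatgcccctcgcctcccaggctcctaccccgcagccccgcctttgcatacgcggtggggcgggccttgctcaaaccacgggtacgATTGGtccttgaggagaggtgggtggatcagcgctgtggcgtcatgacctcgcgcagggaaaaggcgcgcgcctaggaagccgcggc
Ube2c: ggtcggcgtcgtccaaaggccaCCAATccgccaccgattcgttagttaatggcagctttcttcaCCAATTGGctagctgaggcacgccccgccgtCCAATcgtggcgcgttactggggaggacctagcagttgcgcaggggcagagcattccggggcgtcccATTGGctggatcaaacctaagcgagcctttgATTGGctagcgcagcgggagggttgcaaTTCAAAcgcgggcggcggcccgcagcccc
Cdk1: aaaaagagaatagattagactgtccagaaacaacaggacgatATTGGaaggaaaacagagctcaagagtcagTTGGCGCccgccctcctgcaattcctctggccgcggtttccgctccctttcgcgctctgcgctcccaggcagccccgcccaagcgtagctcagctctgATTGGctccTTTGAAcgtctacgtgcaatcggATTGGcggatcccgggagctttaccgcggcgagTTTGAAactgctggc
Top2a: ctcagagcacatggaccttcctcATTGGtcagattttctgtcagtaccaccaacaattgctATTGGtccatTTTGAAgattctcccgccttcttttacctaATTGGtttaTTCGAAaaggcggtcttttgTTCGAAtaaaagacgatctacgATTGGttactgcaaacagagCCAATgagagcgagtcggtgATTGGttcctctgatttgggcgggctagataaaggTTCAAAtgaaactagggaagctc

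In the Mcm5 window, E2F matches lay at 164 to 158 and 149 to 143 bases before the start and CCAAT at 77 to 73 and 22 to 18. The Pcna window held a single match, CCAAT at 87 to 83 bases on the opposite strand, and neither an E2F nor a CHR match by these letters. Ube2c had 6 CCAAT matches, a pair of which overlapped at 186 to 179 bases, and a CHR at 29 to 24 bases. Cdk1 had CHR matches at 71 to 66 and 15 to 10 bases, 3 CCAAT matches and an E2F match at 178 to 172 bases. Top2a had 6 CCAAT and 4 CHR matches, the CHR nearest the start at 23 to 18 bases.

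CCAAT was common in both classes: 18 of 22 mitosis promoters (81.8%) and 12 of 17 replication promoters (70.6%) held it in the search window, against 41.1% of 27025 promoters of all genes and 42.7% of the 11481 promoters of tested genes. The CHR was in 17 of 22 mitosis promoters (77.3%), 3 of 17 replication promoters (17.6%), 21.7% of all promoters and 16.7% of those of tested genes. The E2F motif was in 10 of 17 replication promoters (58.8%) and 4 of 22 mitosis promoters (18.2%), against 7.79% of all promoters and 13.65% of those of tested genes, which the mitosis share was near. Many of the CHR matches lay after the annotated start: within the 250 bases before it, 8 of 22 mitosis promoters (36.4%) held one, against 19.6% of all promoters and 14.95% of those of tested genes. In that window 7 of 17 replication promoters (41.2%) held the E2F motif, against 6.45% of all and 11.3% of tested genes. These shares are descriptions of letters in a window and were not tested.

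All 10 choroid plexus epithelium genes examined (Ttr, Folr1, Kl and others) were above 0 at every age. This is no check of the labelled tissue, since 19075 genes were above 0 in every library. The 10 epithelium genes summed to 13389 to 24640 TPM at E12.5, 149423 to 151066 TPM at P0, 180195 to 195475 TPM at P14 and 173073 to 179265 TPM at A6m. Ttr made up most of that sum, averaging 15444, 141944, 161624 and 141048 TPM at the 4 ages. At the 3 successive steps 0, 5 and 1 of the 10 genes were called lower and 8, 3 and 2 higher (limma adjusted p under 0.05). Of all tested genes, 43.7%, 53.5% and 12.1% were called lower, and 18.6%, 5.33% and 8.78% higher. The 5 lower at P14 were near the share of all genes. Transcripts of the mitochondrial genome made up 11.22% to 17.7% of the total at E12.5, 19.9% to 22.4% at P0, 28.7% to 32.6% at P14 and 31.3% to 34.05% at A6m. Every library sums to the same total, so a level is relative to all other transcripts. The median difference of all 17422 tested genes on the log2(TPM + 1) scale was -0.27 in P0 against E12.5, -0.41 in P14 against P0, -0.04 in A6m against P14 and -0.71 in A6m against E12.5; the part of either group of transcripts in these shifts was not tested. Counts of calls are also given after scaling each library to the median ratio of genes present throughout (median-of-ratios scaling), which moved the medians of the first and last of these comparisons to -0.02 and -0.01. Some libraries stood apart in sex-linked transcripts. Xist, made from the inactive X chromosome, was at 148 to 155 TPM at A6m but at 0.430 to 0.808 TPM at P0 and P14, while the Y-linked Ddx3y was at 0.122 to 0.366 TPM at A6m and at 80.1 to 117 TPM at P0 and P14. E12.5 replicates 1 and 3 held both transcripts, so a library need not stand for 1 animal, and E12.5 replicate 2 held Ddx3y with 0.389 TPM of Xist. Age and sex cannot be told apart in comparisons with A6m, and E12.5 and P0 also differed in these transcripts. With each E12.5 library left out in turn, the counts of genes called lower in P0 and in A6m against E12.5, given next, did not change. These omissions cannot test the part of sex. A library rich in Xist remained at E12.5 in each of them, while P0 was low in Xist and A6m in Ddx3y.

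All 50 genes fell between E12.5 and birth. In P0 against E12.5, 50 of 50 were called lower (adjusted p under 0.05 in limma, over all tested genes) and 0 higher, where 43.7% of all tested genes were called lower and 18.6% higher. After scaling 49 were called lower, against 31.0% of all genes (29.0% higher), and Pcna was the gene lost, at a scaled log2 difference of -0.22 (limma adjusted p = 0.0846). The libraries of both ages did not overlap for any of the 50, as for 43.5% of all tested genes. The median log2 difference was -2.30 over the replication genes and -3.05 over the mitosis genes. In a whole-tissue sample, fewer cells of a type and less RNA per cell cannot be told apart.

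**Figure D1:**
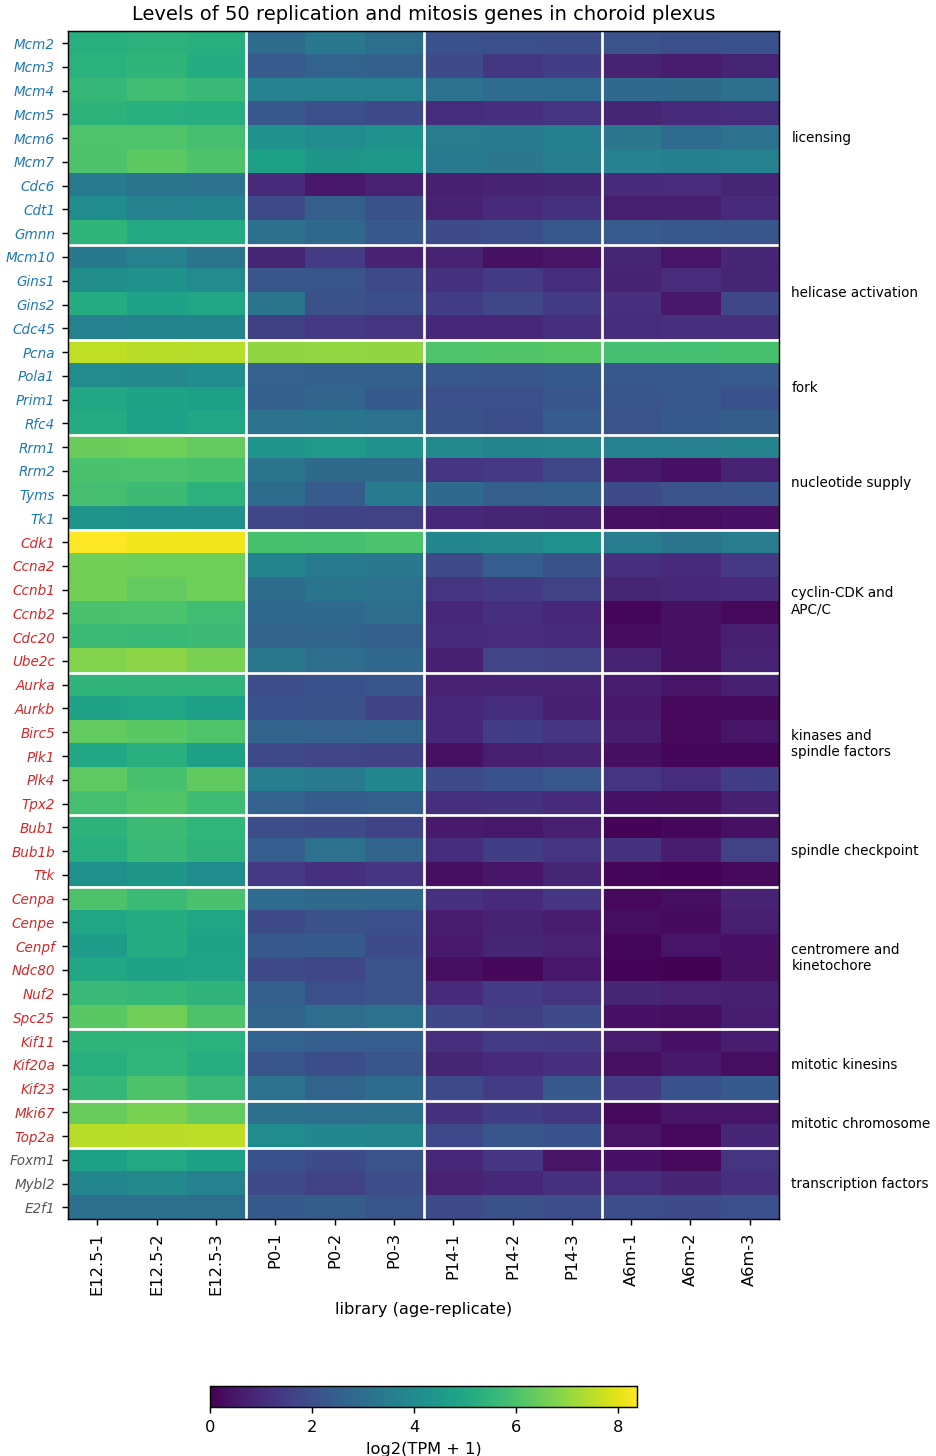
Levels of the 50 genes (rows, grouped by role; blue names replication, red mitosis, grey transcription factors) in the 12 libraries (columns, age and replicate), as log2(TPM + 1) by colour. The 3 E12.5 columns are the brightest in every row, and in the A6m columns Pcna is the brightest row while Top2a, Mki67 and other mitosis genes are near the bottom of the scale.

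The class sums fell by unequal amounts. The 21 replication genes summed to 898 ± 44.6 TPM at E12.5, 269 ± 9.33 TPM at P0, 144 ± 5.57 TPM at P14 and 127 ± 4.88 TPM at A6m (mean ± SD, n = 3 libraries each). The 26 mitosis genes summed to 1798 ± 72.1, 202 ± 4.64, 51.7 ± 6.60 and 25.1 ± 5.11 TPM at the same ages. In every library the mitosis sum was the larger at E12.5 and the smaller at each later age, but at P0 this rested on Pcna, at 125 to 127 TPM. Without Pcna, a split made after the values were seen, the other 20 replication genes summed to 153, 141 and 135 TPM in the P0 libraries, below the mitosis sums of 206, 197 and 203 TPM, and they exceeded the mitosis sum in every P14 and A6m library. The ratio of the replication to the mitosis sum was 0.499 ± 0.0119 at E12.5, then 1.33 ± 0.0423 at P0, 2.81 ± 0.380 at P14, and 5.15 ± 0.803 at A6m. Without Pcna it was 0.399 ± 0.00864, 0.709 ± 0.0371, 1.49 ± 0.236 and 2.79 ± 0.407 at the same ages. The A6m and E12.5 ratios with all 21 genes did not overlap, and the 2-sided exact permutation test gave p = 0.1, the smallest that 3 against 3 libraries allow.

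**Figure D2:**
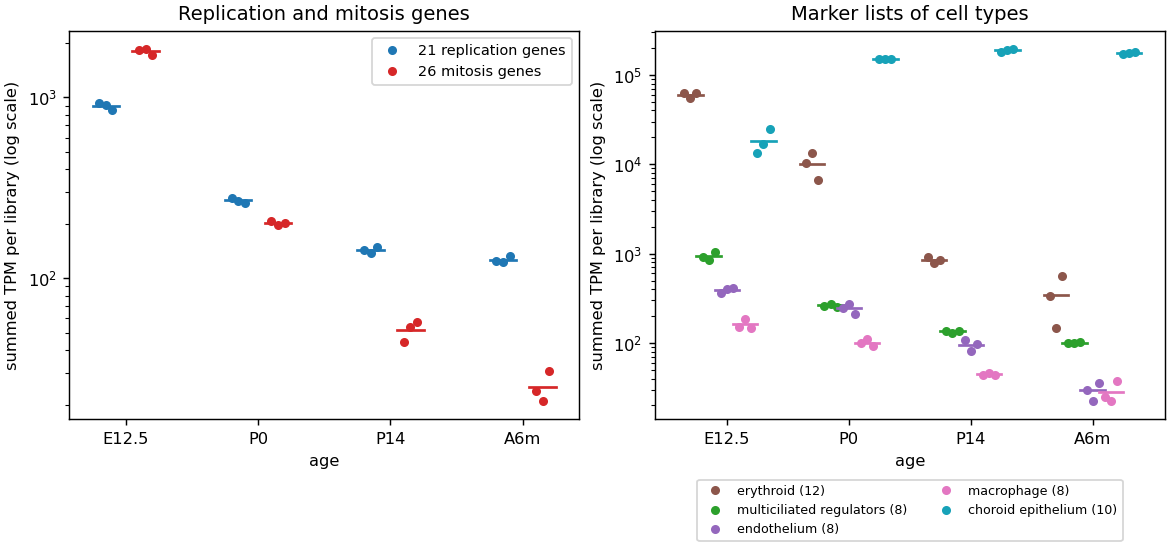
Summed TPM per library (points, log axis) and mean (bars) by age, for the 21 replication and 26 mitosis genes on the left and for marker lists of cell types on the right, with the number of genes in each list. The mitosis points lie above the replication points at E12.5 and below them at P0, P14 and A6m; at P0 the order depends on Pcna. The A6m means are 25.1 TPM for mitosis and 127 TPM for replication.

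Expressed per gene, the median replication gene was at 17.4% of its E12.5 mean at P0, 8.71% at P14 and 9.64% at A6m. The median mitosis gene was at 9.19%, 2.08% and 0.801%, and the median of all tested genes with a level at E12.5 at 79.6%, 55.4% and 54.0%. With scaling the medians at A6m were 17.4% for replication, 1.45% for mitosis and 98.1% for all genes. At A6m 25 of 26 mitosis genes were under 5% of their E12.5 level, the exception being Kif23 at 5.79%, against 5 of 21 replication genes (Mcm3, Mcm5, Gins2, Rrm2 and Tk1) and 7.67% of the 17270 tested genes with a level at E12.5. The spans of both classes overlapped: replication genes ran from 0.857% (Rrm2) to 32.2% (Pcna) and mitosis genes from 0.253% (Top2a) to 5.79%.

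**Figure D3:**
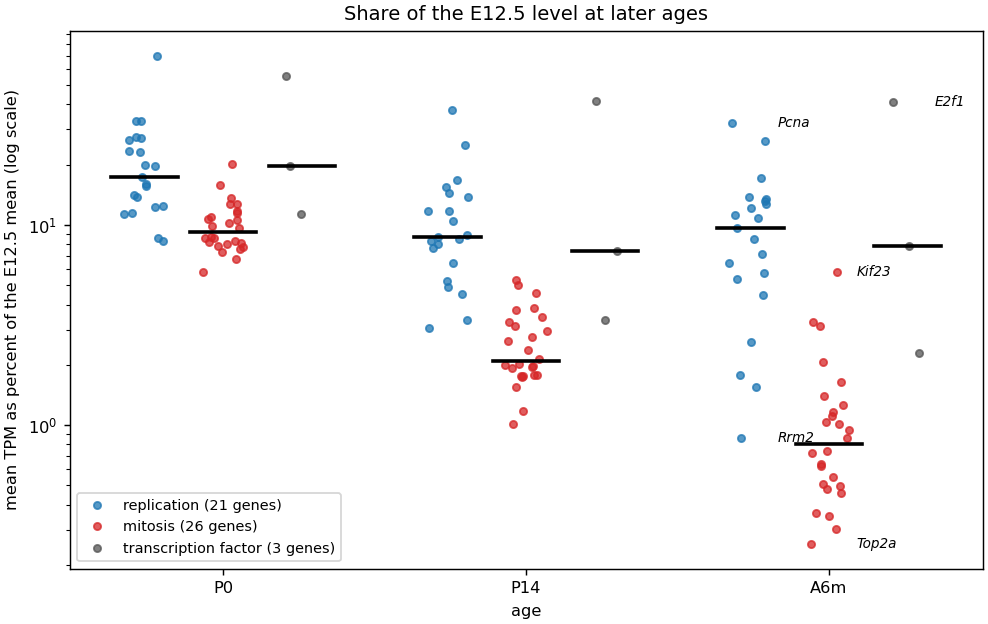
Mean TPM of each gene at P0, P14 and A6m as percent of its E12.5 mean (log axis), with a point per gene and a bar at the median of replication (blue, 21), mitosis (red, 26) and transcription factor genes (grey, 3). At A6m the medians of replication and mitosis are 9.64% and 0.801%.

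Among the 9 licensing genes, the helicase subunits kept very different levels although the complex holds each once. Mcm7 held 63.9, 76.2 and 65.0 TPM at E12.5, 25.96, 20.4 and 21.3 TPM at P0, 9.88, 8.91 and 10.96 TPM at P14 and 12.2, 11.1 and 11.69 TPM at A6m. Mcm3 held 39.4, 43.4 and 35.5 TPM at E12.5, 4.23, 5.36 and 5.12 TPM at P0, 2.75, 1.57 and 1.86 TPM at P14 and 0.724, 0.570 and 0.803 TPM at A6m. Mcm5 held 41.4, 37.2 and 35.9 TPM at E12.5, 3.82, 3.09 and 2.56 TPM at P0, 1.15, 1.25 and 1.46 TPM at P14 and 0.814, 1.01 and 1.15 TPM at A6m. At E12.5 these subunits lay within a narrow band, and at A6m the 3 Mcm7 libraries were at 11.1 to 12.2 TPM and the 3 Mcm3 libraries at 0.570 to 0.803 TPM. The highest of Mcm2 to Mcm7 exceeded the lowest by 1.88 ± 0.152 times at E12.5, by 7.24 ± 0.933 at P0, by 8.37 ± 0.881 at P14 and by 16.98 ± 2.46 at A6m (n = 3 each). Mcm7 was highest and Mcm3 lowest in all 3 A6m libraries, whereas Mcm5 was lowest in all P0 and P14 libraries. The A6m and E12.5 ratios did not overlap (exact permutation p = 0.1, 2-sided, the smallest possible); this and 7 other ratios were examined after the values were seen. In A6m against E12.5 the log2 difference was -2.45 (SE 0.11) for Mcm7, -4.57 (SE 0.15) for Mcm3 and -4.30 (SE 0.13) for Mcm5, with limma adjusted p = 4.55e-09, 5.04e-10 and 2.93e-10.

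The last step separated the subunits further. In A6m against P14, Mcm3 fell by 0.83 (SE 0.15, limma adjusted p = 0.00243) on the log2 scale and its libraries did not overlap. Mcm6 fell by 0.42 (SE 0.11, limma adjusted p = 0.0158). Mcm7 lay higher in all 3 A6m libraries than in any P14 library, but the difference of 0.22 (SE 0.11) did not pass (limma adjusted p = 0.194). Mcm2, Mcm4 and Mcm5 had overlapping libraries at P14 and A6m.

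The origin loaders were low throughout. Cdc6 held 9.71, 8.25 and 8.20 TPM at E12.5, 1.05, 0.486 and 0.708 TPM at P0, 0.667, 0.741 and 0.869 TPM at P14 and 1.01, 1.10 and 0.829 TPM at A6m. Cdc6, the ATPase that brings the helicase to the origin recognition complex, thus took its whole fall before birth, since the P0, P14 and A6m libraries overlapped. Its log2 difference was -2.48 (SE 0.14, limma adjusted p = 9.89e-08) in P0 against E12.5 and 0.019 (SE 0.14, limma adjusted p = 0.917) in P14 against P0. The second sign turned to -0.092 without P0 replicate 2 and to -0.025 without P14 replicate 3. Cdt1, its partner, averaged 13.3 ± 2.14 TPM at E12.5, 3.60 ± 1.06 TPM at P0, 1.02 ± 0.244 TPM at P14 and 0.762 ± 0.187 TPM at A6m. Gmnn encodes geminin, the inhibitor of Cdt1 and a relative of the multiciliated cell regulators Gmnc and Mcidas. It averaged 36.7 ± 6.18, 5.87 ± 1.72, 3.26 ± 0.569 and 3.96 ± 0.299 TPM at the same ages, and the ratio of Gmnn to Cdt1 was 2.76 ± 0.0184 at E12.5, then 1.73 ± 0.812 at P0, 3.23 ± 0.284 at P14, and 5.44 ± 1.55 at A6m. All 3 P0 libraries lay below, and all 3 A6m libraries above, those of E12.5 (exact permutation p = 0.1 for A6m against E12.5, the smallest possible).

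The 4 helicase activation genes fell together at birth. Gins2 held 35.6, 26.7 and 30.1 TPM at E12.5, 8.24, 3.25 and 2.99 TPM at P0, 1.87, 2.45 and 1.68 TPM at P14 and 1.197, 0.470 and 2.46 TPM at A6m. Gins2, a GINS subunit, varied most between libraries of an age: P0 replicate 1 stood above the other P0 libraries, and A6m replicate 2 below the other A6m libraries. Its log2 difference was -2.55 (SE 0.35, limma adjusted p = 7.3e-05) in P0 against E12.5. In P14 against P0 it was -0.85 (SE 0.35, limma adjusted p = 0.053), without overlap between the libraries; it passed without P0 replicate 2 (-1.03, adjusted p = 0.0487), without P0 replicate 3 (-1.07, adjusted p = 0.035), without A6m replicate 2 or 3 (adjusted p = 0.0358 and 0.0338), and with a filter at a mean of 5 TPM (adjusted p = 0.0416). Gins1, Cdc45 and Mcm10, which complete or stabilise the active helicase, were at 5.34%, 9.64% and 7.12% of their E12.5 means at A6m. None of the 4 was called in A6m against P14.

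At the fork, Pcna was the replication gene that kept most of its level. Pcna held 189, 178 and 173 TPM at E12.5, 126, 127 and 125 TPM at P0, 66.1, 66.9 and 70.5 TPM at P14 and 56.9, 57.1 and 59.9 TPM at A6m. The 4 ages formed 4 separate bands with no overlap, and Pcna was the most abundant of the 50 genes in every library after E12.5. Its log2 difference was -0.51 (SE 0.05, limma adjusted p = 1.14e-05) in P0 against E12.5, the smallest of the 50 at that step. In P14 against P0 it was -0.89 (SE 0.05, limma adjusted p = 1.13e-06). The step to A6m was -0.22 (SE 0.05, limma adjusted p = 0.0132); it did not pass after scaling (-0.17, limma adjusted p = 0.254), after quantile normalization (-0.21, limma adjusted p = 0.107), or without P14 replicate 3, A6m replicate 1 or A6m replicate 2 (limma adjusted p = 0.0614, 0.0557 and 0.0506). The clamp serves repair synthesis as well as replication. The ratio of Pcna to Mki67 was 218 ± 116 at A6m against 2.04 ± 0.244 at E12.5, with A6m replicate 1 at 351 and the other A6m libraries at 153 and 149.

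The polymerase and clamp loader genes also fell in P14 against P0, and none of the 3 was called in A6m against P14. Pola1 held 15.4, 14.5 and 16.4 TPM at E12.5, 5.26, 5.09 and 4.88 TPM at P0, 3.80, 3.62 and 4.12 TPM at P14 and 3.84, 3.99 and 4.26 TPM at A6m. Pola1, the catalytic subunit of the primase-associated polymerase alpha, was lower in all 3 P14 libraries than in any P0 library as deposited, with a log2 difference of -0.33 (SE 0.09, limma adjusted p = 0.00718). The sign turned to 0.095 after median-of-ratios scaling and to 0.22 after quantile normalization, and the call was lost when the 10 most abundant genes were left out of the total (-0.17, limma adjusted p = 0.106). P14 and A6m libraries overlapped. Prim1, the primase, and Rfc4, a subunit of the clamp loader, were at 12.7% and 13.4% of their E12.5 means at A6m. Rfc4 averaged 3.56 TPM at P14 against 8.04 TPM at P0 (log2 difference -0.998, SE 0.14, limma adjusted p = 0.000174) and was still called after scaling (-0.57, limma adjusted p = 0.0218). Prim1 averaged 3.30 TPM at P14 against 4.88 TPM at P0 (-0.45, SE 0.11, limma adjusted p = 0.00625) and was not called after scaling (-0.036, limma adjusted p = 0.867).

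Nucleotide supply genes differed in how much of the E12.5 level remained. Rrm1 held 87.4, 90.9 and 80.6 TPM at E12.5, 19.99, 21.3 and 18.6 TPM at P0, 14.3, 12.8 and 12.9 TPM at P14 and 11.68, 11.6 and 12.45 TPM at A6m. Rrm2 held 61.8, 62.9 and 59.7 TPM at E12.5, 8.22, 6.42 and 6.39 TPM at P0, 1.52, 1.61 and 2.48 TPM at P14 and 0.475, 0.337 and 0.768 TPM at A6m. Rrm1 and Rrm2 encode the large and the small subunit of ribonucleotide reductase. The subunits were close at E12.5 and far apart at A6m, where Rrm2 lay at 0.337 to 0.768 TPM and Rrm1 at 11.6 to 12.45 TPM. The ratio of Rrm1 to Rrm2 was 1.40 ± 0.0483 at E12.5, then 2.89 ± 0.446 at P0, 7.52 ± 2.13 at P14, and 25.1 ± 9.13 at A6m. Rrm2 fell at every step, by 2.97 (SE 0.15), 1.49 (SE 0.15) and 0.90 (SE 0.15) on the log2 scale, with limma adjusted p = 5.63e-08, 2.28e-05 and 0.00165. Rrm1 fell by 2.06 (SE 0.08, limma adjusted p = 8.4e-09) at birth and by 0.55 (SE 0.08, limma adjusted p = 0.000181) by P14, a step that did not pass after scaling (-0.063, limma adjusted p = 0.646). The Rrm1 difference between A6m and P14 was -0.15 (limma adjusted p = 0.213).

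Rrm2b and Tk2 were examined beside them after the values were seen, as the small subunit and the thymidine kinase that non-dividing cells use. Rrm2b held 11.9, 13.2 and 18.8 TPM at E12.5, 16.4, 21.5 and 19.1 TPM at P0, 13.9, 13.1 and 13.2 TPM at P14 and 16.8, 16.4 and 17.2 TPM at A6m. E12.5 replicate 3 lay inside the P0 range, and Rrm2b was called higher in P0 against E12.5 (0.37, SE 0.14, limma adjusted p = 0.0429) and lower in P14 against P0 (-0.47, limma adjusted p = 0.0167; 0.018 after scaling). The difference in A6m against E12.5 was 0.21 (SE 0.14, limma adjusted p = 0.202), or 1.01 after scaling (limma adjusted p = 4.61e-06). Rrm2b exceeded Rrm2 by 35.4 ± 13.1 times at A6m, against 0.239 ± 0.0658 at E12.5. Tk1, the S phase thymidine kinase, averaged 18.5 ± 0.533 TPM at E12.5, 2.28 ± 0.221 TPM at P0, 0.834 ± 0.0546 TPM at P14 and 0.286 ± 0.0432 TPM at A6m. The mitochondrial Tk2 averaged 12.9 ± 0.968, 14.3 ± 2.26, 11.1 ± 0.670 and 14.98 ± 0.926 TPM, so the ratio of Tk2 to Tk1 was 52.8 ± 4.97 at A6m against 0.696 ± 0.0718 at E12.5. None of the A6m and E12.5 ratios overlapped (exact permutation p = 0.1, 2-sided, the smallest possible). Tyms, which makes thymidylate, was at 6.43% of its E12.5 mean at A6m, and its P0 libraries spread over 4.37 to 10.3 TPM and overlapped those of P14.

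**Figure D4:**
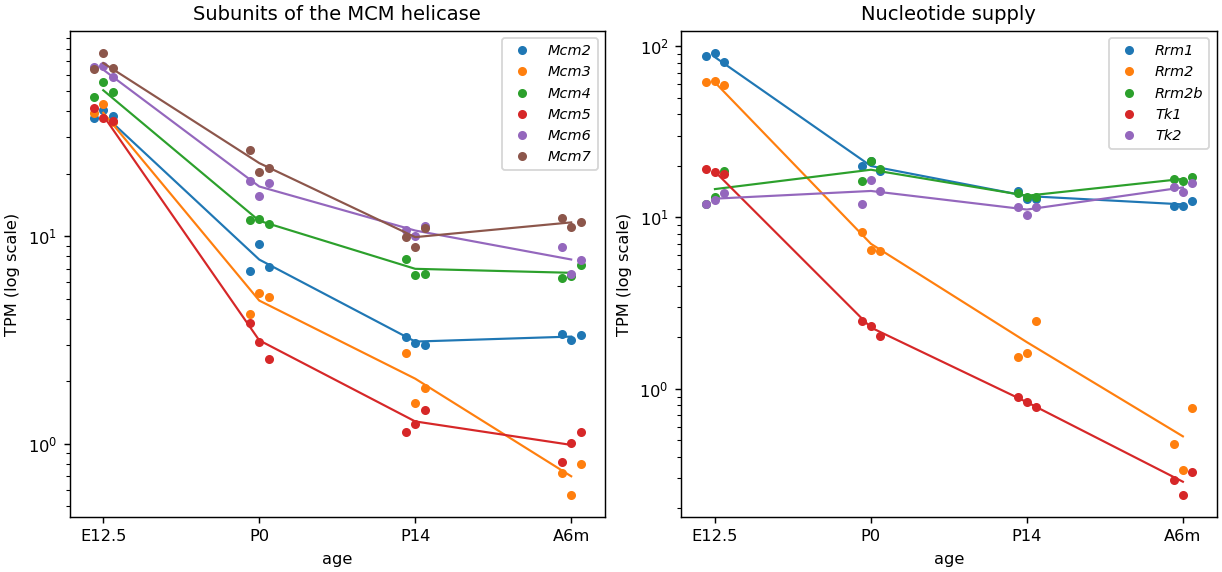
TPM per library (points, log axis) with lines through the means by age, for the 6 subunits of the MCM helicase on the left and for ribonucleotide reductase and thymidine kinase genes on the right. Mcm2 to Mcm7 lie together at E12.5 and spread to a ratio of 16.98 at A6m, and Rrm2 and Tk1 drop while Rrm2b and Tk2 stay between 10.3 and 21.5 TPM.

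All 26 mitosis genes were called lower at P0 against E12.5 and again at P14 against P0, and 16 of 26 in A6m against P14. Of all tested genes 43.7%, 53.5% and 12.1% were called lower at these steps. Cdk1 held 330, 289 and 288 TPM at E12.5, 59.6, 59.0 and 63.3 TPM at P0, 13.8, 14.2 and 17.2 TPM at P14 and 10.64, 8.41 and 10.59 TPM at A6m. Cdk1 was the most abundant of the 50 genes at E12.5 and stayed the most abundant mitosis gene at each age, with no overlap between successive ages. Its log2 difference was -2.30 (SE 0.10) at birth, the smallest of the mitosis genes at that step, -1.94 (SE 0.10) by P14 and -0.56 (SE 0.10) by A6m, with limma adjusted p = 3.16e-08, 6.59e-07 and 0.00344. The cyclins it needs fell further: at A6m Ccna2 was at 1.39%, Ccnb1 at 1.04% and Ccnb2 at 0.302% of the E12.5 mean, against 3.27% for Cdk1.

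Genes of the APC/C followed. Ube2c held 108, 119 and 101 TPM at E12.5, 9.12, 6.98 and 6.14 TPM at P0, 0.647, 2.36 and 2.12 TPM at P14 and 0.756, 0.301 and 0.748 TPM at A6m. Ube2c had the largest fall of the 50 at birth on the log2(TPM + 1) scale, -3.73 (SE 0.25, limma adjusted p = 3.71e-07). As a share of the E12.5 mean, Bub1 was lower at P0, at 5.82% against 6.75% for Ube2c. The P14 and A6m libraries of Ube2c overlapped because P14 replicate 1 was as low as the A6m libraries. The last step was -0.70 (SE 0.25, limma adjusted p = 0.072), and -1.03 (adjusted p = 0.00383) without P14 replicate 1. Cdc20, the activator that directs the APC/C to cyclin B and securin, averaged 0.377 ± 0.230 TPM at A6m against 51.2 ± 1.03 TPM at E12.5 and was called lower at every step.

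Mitotic kinases and spindle factors had A6m levels of 0.480% (Plk1) to 2.07% (Plk4) of their E12.5 means. Birc5 held 81.9, 73.1 and 66.0 TPM at E12.5, 5.35, 5.25 and 5.48 TPM at P0, 0.961, 1.90 and 1.44 TPM at P14 and 0.567, 0.154 and 0.400 TPM at A6m. Birc5 encodes survivin, which places Aurora B on the centromere, and each age lay wholly below the one before. It fell by 3.55 (SE 0.16) at birth, 1.40 (SE 0.16) by P14 and 0.82 (SE 0.16) by A6m on the log2 scale, with limma adjusted p = 2.47e-08, 4.27e-05 and 0.00389; with a pseudocount of 5 the last did not pass (limma adjusted p = 0.052). Plk4 held 77.3, 60.6 and 80.02 TPM at E12.5, 10.9, 9.59 and 14.03 TPM at P0, 2.86, 3.33 and 3.79 TPM at P14 and 1.44, 1.13 and 1.94 TPM at A6m. Plk4, the kinase that starts centriole duplication, in cycling cells and in the centriole amplification of multiciliated cells, was the highest of these 6 genes at A6m. It fell by 0.80 (SE 0.17, limma adjusted p = 0.0065) in A6m against P14, or with a pseudocount of 5 by 0.36 (limma adjusted p = 0.0625). Aurka and Plk1 were not called at that step, and Aurkb and Tpx2 were.

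The spindle checkpoint genes differed in what was left. Bub1 held 41.6, 52.2 and 44.5 TPM at E12.5, 2.97, 2.79 and 2.30 TPM at P0, 0.520, 0.466 and 0.647 TPM at P14 and 0.0635, 0.140 and 0.297 TPM at A6m. Bub1b held 38.3, 50.1 and 42.1 TPM at E12.5, 4.63, 7.78 and 5.41 TPM at P0, 1.11, 1.95 and 1.47 TPM at P14 and 1.34, 0.600 and 2.12 TPM at A6m. Ttk held 17.4, 20.8 and 15.8 TPM at E12.5, 1.64, 1.22 and 1.501 TPM at P0, 0.260, 0.413 and 0.813 TPM at P14 and 0.108, 0.0664 and 0.163 TPM at A6m. Bub1 and Ttk, kinases that signal unattached kinetochores, lay at 0.0635 to 0.297 TPM and 0.0664 to 0.163 TPM at A6m, while Bub1b, which holds the APC/C in check, lay at 0.600 to 2.12 TPM and overlapped its P14 range. Bub1 differed between A6m and P14 by -0.41 (SE 0.13, limma adjusted p = 0.0425), a call lost when any of several single libraries was left out, with a pseudocount of 5 (limma adjusted p = 0.435), without a filter on low values (0.0893), with a filter at a mean of 5 TPM (0.069) or with quantile normalization (0.0917). Omitting P14 replicate 1, 2 or 3 gave limma adjusted p = 0.0918, 0.0683 and 0.135, omitting A6m replicate 1 or 2 gave 0.143 and 0.106, and omitting E12.5 replicate 3 or P0 replicate 1 or 2 gave 0.0518, 0.0514 and 0.0564. Bub1b differed by -0.13 (limma adjusted p = 0.769), or 0.12 without A6m replicate 2, and Ttk by -0.41 (limma adjusted p = 0.0875). Ttk passed with a pseudocount of 0.1 (-1.40, limma adjusted p = 0.0104) and with the 10 most abundant genes left out of the total (-0.60, limma adjusted p = 0.0402).

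The 6 centromere and kinetochore genes fell at both earlier steps, and Spc25 and Cenpa also in A6m against P14. Spc25 held 74.5, 93.5 and 63.9 TPM at E12.5, 5.44, 6.87 and 7.88 TPM at P0, 2.502, 1.99 and 2.73 TPM at P14 and 0.324, 0.243 and 0.579 TPM at A6m. Spc25, a subunit of the Ndc80 complex that grips microtubules, fell in steps of -3.34 (SE 0.17), -1.18 (SE 0.17) and -1.30 (SE 0.17), with limma adjusted p = 5.44e-08, 0.000202 and 0.000326 and no overlap at any step. Nuf2 held 49.5, 46.3 and 42.4 TPM at E12.5, 4.98, 3.13 and 3.44 TPM at P0, 0.975, 1.73 and 1.38 TPM at P14 and 0.878, 0.719 and 0.662 TPM at A6m. Nuf2, another subunit of that complex, was the highest of the 6 centromere and kinetochore genes at A6m, and its last step was -0.42 (SE 0.16, limma adjusted p = 0.0885), without overlap; with a pseudocount of 0.1 it passed (-0.75, limma adjusted p = 0.0312). At A6m Ndc80 was at 0.457%, Cenpa at 0.639%, Cenpf at 0.943% and Cenpe at 1.11% of the E12.5 mean. Cenpa encodes the centromeric histone, and Cenpe and Cenpf kinetochore proteins that bind microtubules.

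Among mitotic kinesins Kif23 stood apart from Kif11 and Kif20a. Kif23 held 46.7, 64.0 and 48.4 TPM at E12.5, 8.06, 5.45 and 6.82 TPM at P0, 2.63, 1.78 and 4.01 TPM at P14 and 1.70, 3.35 and 4.16 TPM at A6m. Kif23 encodes MKLP1, the kinesin of the central spindle and midbody, and its P14 and A6m libraries overlapped. It fell by 2.80 (SE 0.27, limma adjusted p = 5.25e-06) at birth and 1.06 (SE 0.27, limma adjusted p = 0.00598) by P14, a step that did not pass after scaling (-0.65, limma adjusted p = 0.0881) or quantile normalization (-0.53, limma adjusted p = 0.149). From P14 the A6m level differed by 0.087 (SE 0.27, limma adjusted p = 0.871), or -0.12 without P14 replicate 2 and -0.11 without A6m replicate 3. Kif11, the motor that separates the spindle poles, and Kif20a, which acts in cytokinesis, were called lower at each step and stood at 1.16% and 0.864% of their E12.5 means at A6m.

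Of the genes of mitotic chromosomes, Top2a had the largest fall of the 50 by A6m. Top2a held 177, 182 and 185 TPM at E12.5, 16.0, 13.7 and 13.2 TPM at P0, 2.63, 3.69 and 3.32 TPM at P14 and 0.343, 0.156 and 0.879 TPM at A6m. Mki67 held 85.8, 101 and 80.7 TPM at E12.5, 7.44, 7.17 and 7.45 TPM at P0, 1.34, 1.84 and 1.57 TPM at P14 and 0.162, 0.374 and 0.401 TPM at A6m. Top2a fell 395-fold and Mki67, the Ki-67 antigen that coats mitotic chromosomes and is used to count proliferating cells, fell 285-fold between the E12.5 and A6m means. Without A6m replicate 3 the Top2a fold was 727 and that of Mki67 333. The A6m means of both genes lay under 1 TPM, where unknown depth limits what a fold can show. Transcripts of the embryonic globins Hbb-y, Hbb-bh1 and Hba-x were also present at A6m, averaging 22.0, 3.23 and 7.82 TPM. At P14 these globins averaged 4.77, 0.631 and 1.43 TPM, and none was called in A6m against P14. The source of such low levels at A6m was not tested. No age overlapped the one before, though A6m replicate 3 held the highest Top2a and Mki67 of its age. On the log2(TPM + 1) scale, which understates falls to low levels, the differences in A6m against E12.5 were -7.00 (SE 0.16, limma adjusted p = 7.46e-11) and -6.10 (SE 0.12, limma adjusted p = 2.51e-11). Between A6m and P14 they were -1.55 (SE 0.16, limma adjusted p = 8.08e-05) and -0.98 (SE 0.12, limma adjusted p = 0.000192). A6m replicate 3 was the highest of its age for 32 of the 50 genes and 16 of the 26 mitosis genes. The range of counts over single omissions, given next, includes the omission of this library and is no separate check of it.

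Of the 3 transcription factors, E2f1 was the least changed. E2f1 held 7.35, 7.37 and 7.05 TPM at E12.5, 4.13, 4.49 and 3.51 TPM at P0, 2.89, 3.18 and 2.96 TPM at P14 and 3.06, 2.79 and 3.14 TPM at A6m. E2f1, an activator of replication genes, was at 41.3% of its E12.5 mean at A6m, the highest share of the 50 genes. Its log2 difference was -0.72 (SE 0.10, limma adjusted p = 7.81e-05) in P0 against E12.5 and -0.33 (SE 0.10, limma adjusted p = 0.0144) in P14 against P0. The second sign turned to 0.075 after median-of-ratios scaling and 0.23 after quantile normalization, and the call was lost without P0 replicate 2 (-0.26, adjusted p = 0.0611) and when the 10 most abundant genes were left out of the total (-0.18, adjusted p = 0.17). In A6m against E12.5 it was -1.05 (SE 0.10, limma adjusted p = 1.73e-06), or -0.11 with quantile normalization (limma adjusted p = 0.355). Foxm1 held 25.8, 31.8 and 26.04 TPM at E12.5, 3.34, 2.76 and 3.40 TPM at P0, 0.914, 1.51 and 0.368 TPM at P14 and 0.315, 0.160 and 1.44 TPM at A6m. Mybl2 held 13.4, 14.3 and 11.8 TPM at E12.5, 2.59, 2.13 and 3.02 TPM at P0, 0.725, 0.946 and 1.26 TPM at P14 and 1.13, 0.808 and 1.17 TPM at A6m. Foxm1 and Mybl2, the activators of mitosis genes, were at 2.29% and 7.88% of the E12.5 mean at A6m. Foxm1 varied widely at the later ages, with A6m replicate 3 above the P14 mean and A6m replicate 2 lowest, and its step from birth to P14 of -1.15 (SE 0.28, limma adjusted p = 0.00464) did not pass after scaling (-0.85, limma adjusted p = 0.0536) or quantile normalization (-0.65, limma adjusted p = 0.109). None of the 3 was called in A6m against P14.

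The later steps were counted by class. In P14 against P0, 46 of 50 genes were called lower and 0 higher, against 53.5% lower and 5.33% higher among all tested genes; Cdc6, Gins2, Mcm10 and Tyms were not called. By class these were 26 of 26 mitosis and 17 of 21 replication genes, and after scaling 25 of 26 and 10 of 21, where 19.8% of all genes were lower and 22.7% higher. Quantile normalization left 8 of 21 replication genes; of the genes with values in every library it also ended the calls of Mcm5, Rrm1, Nuf2, Ttk and Mybl2 at that step (limma adjusted p = 0.112, 0.324, 0.062, 0.191 and 0.11). In A6m against P14, 21 of 50 were called lower and 0 higher, against 12.1% lower and 8.78% higher of all genes, made up of 16 of 26 mitosis and 5 of 21 replication genes (Mcm3, Mcm6, Pcna, Rrm2 and Tk1). After scaling the numbers were 16 and 4, with 2434 of 17422 tested genes lower and 2643 higher. With a pseudocount of 5, which weights low levels less, 11 of 50 and 7 of 26 mitosis genes were called. Leaving out P14 replicate 3 or A6m replicate 2 gave 3 of 21 replication genes, and over all 12 omissions the count ran from 17 to 21 of 50. Libraries of A6m and P14 did not overlap for 29 of 50 genes (A6m lower), as for 25.9% of all genes, and of P14 and P0 for 47, as for 62.1%.

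Over the whole span, A6m against E12.5, 50 of 50 genes were called lower, as deposited and after scaling, against 62.0% of all tested genes as deposited (15.2% higher) and 35.8% after scaling (35.4% higher). The median log2 difference was -2.89 over replication and -4.89 over mitosis genes, against -0.71 over all tested genes. All 50 lay lower in every A6m library than in any E12.5 library, as for 61.5% of all genes. The comparisons share libraries, so their values are given side by side.

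**Figure D5:**
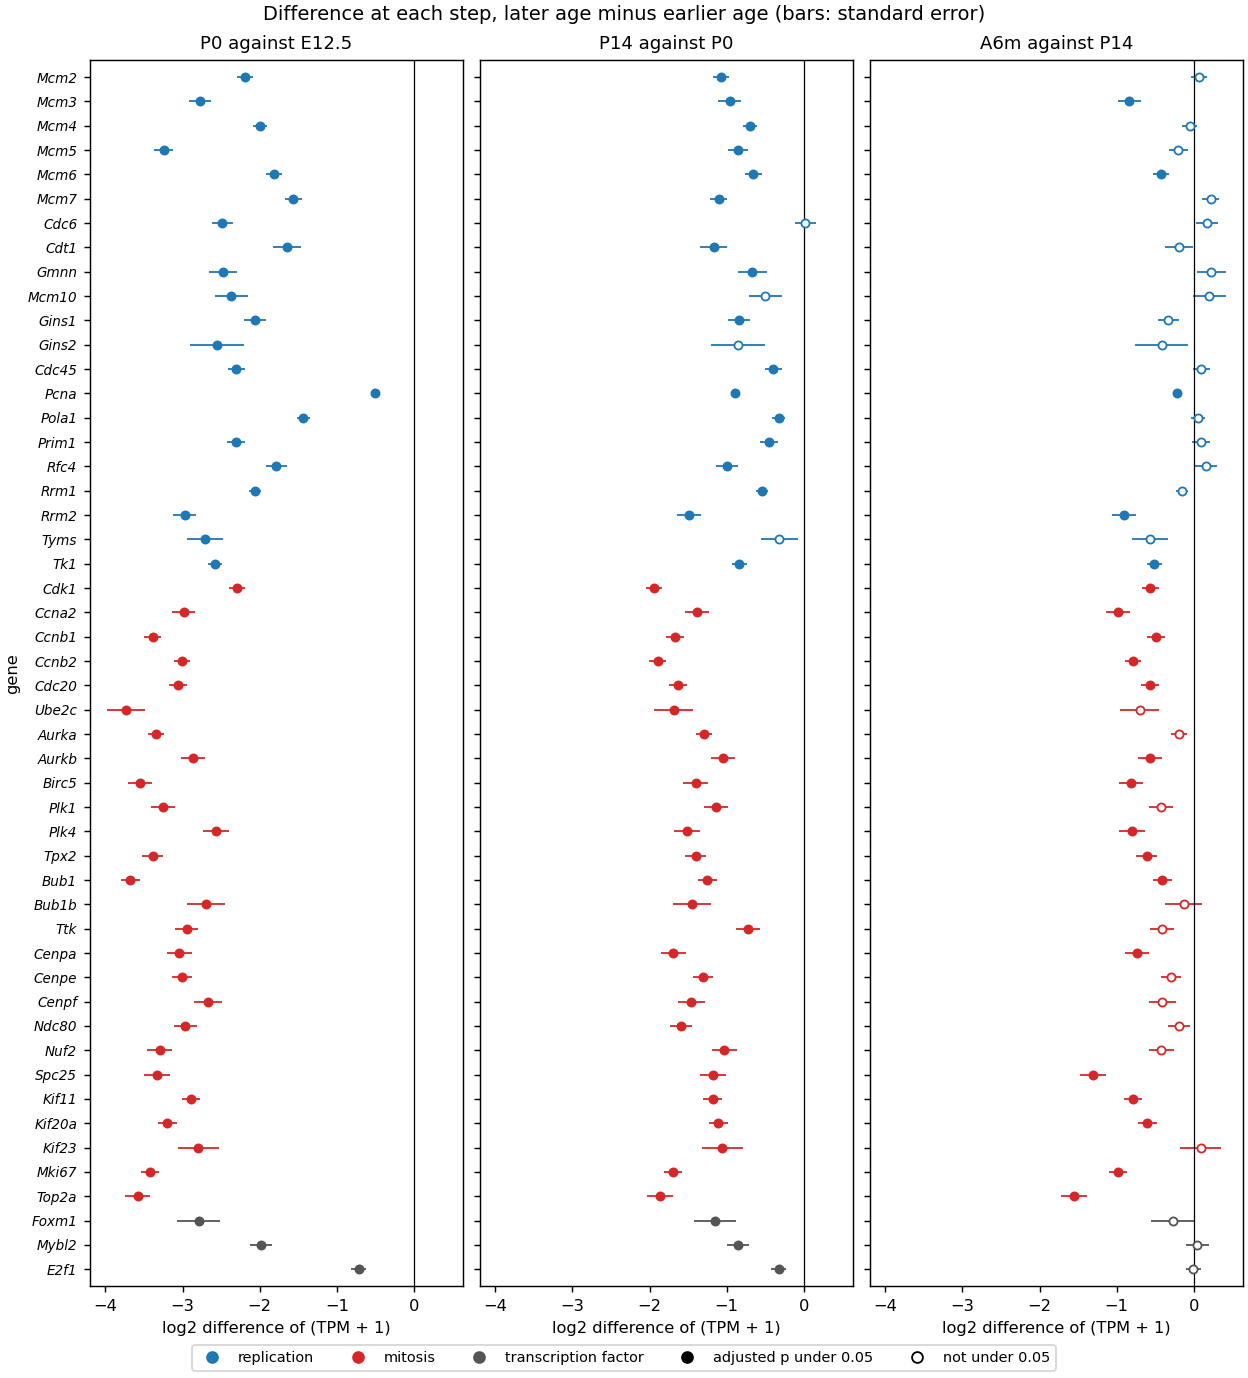
Log2 difference of (TPM + 1), later minus earlier age, for each of the 50 genes (rows) at the 3 steps (panels), with standard errors as bars and filled points where the limma adjusted p was under 0.05. All points are left of 0 and filled at P0 against E12.5, and in A6m against P14 the filled points are 16 mitosis and 5 replication genes.

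Other genes of the same pathways were listed to set beside these. Of 42 further replication genes, 41 were called lower in P0 against E12.5 and 0 higher, 34 lower and 1 higher in P14 against P0, 10 lower and 0 higher in A6m against P14, and 41 lower in A6m against E12.5, with medians of -1.45, -0.52, -0.13 and -2.20. As deposited, 43.7%, 53.5%, 12.1% and 62.0% of all tested genes were called lower in the same comparisons. After scaling 39, 8, 8 and 35 were lower and 1, 5, 1 and 2 higher, so that the 8 of 42 in P14 against P0 were a share near the 19.8% of all tested genes. Scaled, 31.0% of all tested genes were lower in P0 against E12.5 and 35.8% in A6m against E12.5. In A6m against P14 the scaled count was 2434 of 17422 tested genes. Uhrf1, which reads hemimethylated DNA at the fork, fell most on the log2(TPM + 1) scale, which understates falls to low levels. It fell to 3.04 ± 0.868 TPM at P0 against 42.8 ± 2.93 TPM at E12.5 (log2 difference -3.46, SE 0.16, limma adjusted p = 2.82e-08). As a ratio of means, Orc1 (0.258 TPM at P0 against 4.36 TPM at E12.5) and Ccne1 fell further. On the log2 scale the cyclins of S phase entry followed. Ccne1 was at 1.45 ± 0.629 TPM at P0 against 21.1 ± 6.89 TPM at E12.5, and Ccne2 at 2.87 ± 0.455 TPM at P0 against 31.4 ± 6.09 TPM at E12.5 (limma adjusted p = 1.53e-06 and 1.14e-07). Rpa1, a subunit of the single-strand binding protein used in replication and repair, was the gene called higher, at 62.1 TPM at P14 against 45.8 TPM at P0 (log2 difference 0.43, SE 0.05, limma adjusted p = 8.34e-05); it was chosen after its values were seen.

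Of 68 further mitosis genes, 67 were called lower and 1 higher in P0 against E12.5, 65 and 1 in P14 against P0, 20 and 1 in A6m against P14, and 67 and 1 in A6m against E12.5, with medians of -2.49, -0.91, -0.30 and -3.94. The as-deposited shares of all tested genes called lower were 43.7%, 53.5%, 12.1% and 62.0%. After scaling 66, 50, 20 and 67 were lower and 1, 2, 1 and 1 higher, where 31.0%, 19.8% and 35.8% of all tested genes were lower at the first, second and last of these. In A6m against P14, 2434 of 17422 tested genes were lower after scaling. Dlgap5, Cdca8 and Racgap1 act in spindle assembly, the chromosomal passenger complex and cytokinesis. On the log2(TPM + 1) scale they fell most at birth, with differences of -3.53 (SE 0.20), -3.41 (SE 0.17) and -3.35 (SE 0.20). As a ratio of means, Melk, Ccnf and Ncapg fell further than Cdca8 and Racgap1, and Cdc25c further than Racgap1. Pttg1, the mouse securin that restrains separase, was the exception. It averaged 76.7 ± 9.10 TPM at E12.5, 93.9 ± 9.59 TPM at P0, 82.1 ± 2.59 TPM at P14 and 110 ± 6.02 TPM at A6m, and was called higher in P0 against E12.5 (0.29, SE 0.10, limma adjusted p = 0.0219) and in A6m against E12.5 (0.52, SE 0.10, limma adjusted p = 0.00047). Espl1, which encodes separase, was called higher in P14 against P0 alone, at 1.42 TPM at P14 against 0.664 TPM at P0 (log2 difference 0.53, SE 0.12, limma adjusted p = 0.0026), and stayed below its E12.5 mean of 7.24 TPM; it too was chosen after its values were seen.

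Among 17 E2F, RB and DREAM regulators, 14 were called lower and 3 higher in P0 against E12.5, and the same counts held in A6m against E12.5; after scaling these were 12 and 3, and 10 and 4. In P14 against P0 they were 14 and 0 (4 and 2 after scaling), and in A6m against P14 3 and 3 (3 and 6 after scaling). At both of these steps the scaled counts of lower genes were near the share of all tested genes, 19.8% in P14 against P0 and 2434 of 17422 in A6m against P14. The atypical repressors E2f7 and E2f8, themselves expressed in S phase, fell to 5.55 ± 0.583 and 1.12 ± 0.199 TPM at P0, against 51.3 ± 1.58 and 9.84 ± 1.18 TPM at E12.5 (limma adjusted p = 3.98e-09 and 8.13e-07). E2f3, an activator, fell to 2.58 ± 0.555 TPM at P0, against 10.1 ± 0.921 TPM at E12.5 (limma adjusted p = 1.25e-06). Of all tested genes, 43.7% were called lower and 18.6% higher in P0 against E12.5, and 62.0% and 15.2% in A6m against E12.5. In P14 against P0 these shares were 53.5% and 5.33%, and in A6m against P14 12.1% and 8.78%. The 3 of 17 called higher against E12.5 were near the share of all genes in both comparisons. The genes called higher in P0 against E12.5 were Rbl2, Tfdp2 and Lin52. They encode the p130 pocket protein of quiescent cells, a dimerization partner of E2F and a MuvB subunit. Rbl2 averaged 30.5 ± 2.46 TPM at P0 against 17.2 ± 2.83 TPM at E12.5, and 29.4 ± 0.583 TPM at A6m. Tfdp2 rose to 59.1 ± 1.53 TPM at A6m, against 24.5 ± 2.66 TPM at E12.5 (log2 difference 1.24, SE 0.10, limma adjusted p = 3.37e-07), and Lin52 to 15.1 ± 1.13 TPM at A6m, against 11.24 ± 0.608 TPM at E12.5 (0.39, SE 0.09, limma adjusted p = 0.00225).

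Summed levels of markers of other cell types were lower at A6m than at E12.5 in every list, though single markers moved both ways. At the 3 successive steps 43.7%, 53.5% and 12.1% of all tested genes were called lower as deposited. The 12 erythroid genes summed to 55701 to 62758 TPM at E12.5, 6655 to 13502 TPM at P0, 778 to 909 TPM at P14 and 149 to 565 TPM at A6m, and the embryonic globin Hbb-y averaged 24778, 6.97, 4.77 and 22.0 TPM. Of the 12 erythroid genes, the calls lower at the 3 steps were 11, 7 and 5 (11, 6 and 5 after scaling), the second a share near that of all genes as deposited, and the adult globin gene Hbb-bs was called higher at P0. The 8 regulators of multiciliated cells summed to 858 to 1055, 255 to 274, 131 to 137 and 99.2 to 102 TPM, with 8, 8 and 6 of 8 called lower (7, 6 and 6 after scaling). Single regulators differed: Mcidas and Ccno averaged 0.0520 and 0.170 TPM at A6m, against 37.0 and 47.2 TPM at E12.5. Foxj1 and Gmnc averaged 60.0 and 37.4 TPM at A6m, against 273 and 128 TPM at E12.5, and made up most of the A6m sum. Foxj1 was not called in A6m against P14 (limma adjusted p = 0.48). The 8 endothelial genes summed to 367 to 411, 209 to 276, 81.1 to 107 and 22.7 to 36.1 TPM and were called lower in 7, 8 and 8 of 8 at the 3 steps, as deposited and after scaling. The 8 macrophage genes summed to 147 to 186, 92.9 to 110, 43.6 to 45.9 and 22.2 to 37.7 TPM, with 5, 8 and 4 of 8 called lower (4, 5 and 4 after scaling). The 7 fibroblast genes summed to 1003 to 1337, 581 to 599, 264 to 309 and 166 to 237 TPM; of the 6 tested, 4, 5 and 4 were called lower and 2, 0 and 0 higher (4, 4 and 4 lower and 2, 1 and 0 higher after scaling). Dcn averaged 176 TPM at P0 against 43.9 TPM at E12.5, with 114 TPM at A6m, and Pdgfra 125 TPM at P0 against 54.8 TPM at E12.5. The 6 mural genes summed to 145 to 225, 94.2 to 113, 77.8 to 109 and 14.4 to 24.4 TPM, with 3, 3 and 4 called lower and 1, 1 and 0 higher (2, 2 and 4 lower and 2, 3 and 0 higher after scaling). Kcnj8 was the one higher at P0 and Tagln at P14, as deposited. The as-deposited lower counts of the mural genes at the first 2 steps were near the shares of all tested genes. The 11 neural genes, of which 7 passed the filter on low values, summed to 98.6 to 202, 48.8 to 64.9, 30.2 to 42.2 and 27.5 to 31.6 TPM, with 3, 2 and 1 of the 7 called lower (3, 1 and 1 lower and 1, 0 and 0 higher after scaling). As deposited, the neural counts at the first and last steps were near the shares of all tested genes, and the second was below. Apart from the fibroblast gene Dpt, at 0 at E12.5 and A6m, and the neural Emx2, at 0 at A6m, every marker was above 0 in some library of those ages. The part of these cell types in the falls of the replication and mitosis genes was not tested.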

How the data were processed

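RNA of choroid plexus in 12 libraries, 3 at each of 4 ages, was analysed from a table of TPM that the authors deposited, made with kallisto on GRCm38 per the submitters' processing notes. Which annotation was used, and how transcripts were joined into genes, is not given in the sources used here. TPM carries no read counts, so library depth is unknown and no counting interval was given. Columns were assigned to ages by their titles. A further 7 columns and the mutant tissue were not used here.

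Genes with TPM of at least 1 in at least 3 libraries were tested (17422). Values became log2(TPM + 1), a scale that understates the change of low genes. All 12 libraries were fitted as 4 age means (8 residual degrees of freedom) with limma 3.58.1 (eBayes with trend) in R 4.3.3. Every adjusted p is Benjamini-Hochberg over all tested genes, and a gene was called at an adjusted p under 0.05. The fit was tested on simulated data. P-values rest on the spread within ages pooled over all 12 libraries and moderated across genes. A call can therefore change when a library outside the comparison is left out. Promoters are RefSeq sequences on GRCm38.p6. Plots used matplotlib 3.10.9 (Python 3.11.15).

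The members and lists were chosen with earlier results of these data known. Genes with values in every library were, in each role group, the highest at E12.5 and the highest at A6m, the 3 transcription factors, the 3 largest and the 3 smallest falls of each class by A6m, any gene called higher, and any not called at birth. From each other pathway list came up to 3 genes with the largest fall at birth and all called higher there. The ratios, Rrm2b, Tk2, Dcn, Pdgfra, Kcnj8, Tagln, Mcidas, Ccno, Foxj1 and Gmnc were chosen after the values were seen. Alternatives were a pseudocount of 0.1 or 5, testing every gene above 0, testing genes averaging at least 5 TPM, scaling by median ratios (19075 genes) or quantiles, totals that omit the 10 most abundant genes, fits to the 6 libraries compared, the replicate number as a block, and each library left out in turn.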

Additional observations from a re-analysis of the deposited data

How the results depend on the processing

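The counts of genes called lower in P0 and in A6m against E12.5 stayed within 1.5 times under every alternative and omission run. In P14 against P0, replication genes called lower numbered 17 as deposited, 10 with median-of-ratios scaling and 8 with quantile normalization. In A6m against P14, a pseudocount of 5 gave 11 genes called lower in place of 21, and 7 mitosis genes in place of 16. Leaving out each library in turn gave 46 to 48 genes in P14 against P0 (17 to 19 of replication) and 17 to 21 in A6m against P14 (3 to 5 of replication, 14 to 16 of mitosis). Without Pcna, an alternative chosen after seeing the data, the ratio of the replication to the mitosis sum was 0.399 at E12.5, then 0.709 at P0, 1.49 at P14, and 2.79 for A6m, in place of 0.499, 1.33, 2.81 and 5.15. For the counts that moved the cause was not tested.

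Some log2 differences changed sign. In P14 against P0, E2f1 was at 0.075 with median-of-ratios scaling and 0.23 with quantile normalization, and Pola1 at 0.095 and 0.22. Cdc6 ran from -0.092 to 0.14 over the omissions. In A6m against P14, E2f1 was at 0.036 and 0.071 with these scalings. Over the omissions at that step E2f1 ran from -0.031 to 0.033, Bub1b from -0.36 to 0.12, Kif23 from -0.12 to 0.36 and Mybl2 from -0.047 to 0.15. For these genes too the cause was not tested. Genes under a mean of 5 TPM gave no value with that filter. Motif shares in the shorter promoter window stand beside those of the longer one above.

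Same-numbered libraries did not deviate together (correlations of -0.064 to 0.072), so the replicate numbers did not pair them. With the replicate number as a block, genes called lower numbered 50 in P0 and 50 in A6m against E12.5, 46 in P14 against P0 and 20 in A6m against P14, where Bub1 lost its call (limma adjusted p = 0.0769). Unknown depth limits what can be said of levels under 1 TPM, where most mitosis genes lay at A6m.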
